A study of Saccharomyces cerevisiae with 6 samples.

Results

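The nuclear genes for the mitochondrial respiratory chain and the ATP synthase were examined in the mRNA of budding yeast in meiotic prophase. The set has 40 genes, chosen by name from the known nuclear-encoded subunits, the soluble electron carriers and the ATPase inhibitor. Of these, 39 have a row among the 5297 genes listed. The subunit genes *ATP19* and *COX26* have a row but lie outside the set. *ATP18*, a small membrane subunit of the ATP synthase, has no row and is not analysed here. The libraries came from 3 *SPO11* cultures, which form meiotic DNA breaks, and from 3 *spo11-YF* cultures, in which the catalytic tyrosine of the nuclease Spo11 is exchanged for a phenylalanine and breaks cannot form. The cultures belong to 3 independent time courses. Both strains are diploid, of the SK1 background, and lack *NDT80*, the transcription factor needed to leave meiotic prophase, and *PPH3*, the catalytic subunit of the phosphatase PP4. The strains also differ in marker genes, since *spo11-YF* cells carry *URA3* beside the mutated gene and the copies of *LEU2* and *TRP1* are not the same. Cells were grown in acetate medium and shifted to potassium acetate sporulation medium, and the study's methods give 4 h in meiosis as the time of sampling, a time the sample labels do not give.

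Each gene has 1 value that could be used, namely the normalized count that the authors averaged over all 6 libraries. No value per culture was used, so no standard deviation can be given, the depth of each library is unknown, and *SPO11* cells are not set against *spo11-YF* cells here. A difference between genes in the following account is a difference between these means, with no replicate error beside it. Summed over the whole table, these means come to 2759217, with 218.5 for the gene in the middle. To compare genes of different length, each mean was divided by the length of the coding sequence in kilobases, and this quantity is the level given below. Coding lengths were available for 5276 genes, whose median level was 165.0 per kb and whose top 10% began at 726.2 per kb. Because mRNA was measured in bulk, fewer cells with a transcript and less transcript per cell cannot be told apart.

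The respiratory chain passes electrons from NADH and succinate to oxygen in the inner mitochondrial membrane, and the ATP synthase uses the resulting proton gradient to make ATP. Budding yeast lacks the proton-pumping complex I of other eukaryotes and oxidizes NADH with single-chain dehydrogenases. Sporulation takes place on acetate, a carbon source that cannot be fermented, and requires respiration. A few core subunits are encoded by mitochondrial DNA, and none of the 7 that were looked up (*COX1*, *COX2*, *COX3*, *COB*, *ATP6*, *ATP8* and *OLI1*) has a row here. The subunits described below are therefore nuclear-encoded and are imported into mitochondria.

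The labelled stage was checked first. The 17 early meiotic genes, such as the recombinase gene *DMC1* at 7007 per kb and the chromosome axis gene *HOP1* at 2872 per kb, had a median level of 2102 per kb, and the lowest of them, *MEI4*, had 401.5 per kb. The 13 genes listed as middle meiotic markers had a median of 64.9 per kb, and 3 of them lay above the median of all genes. Only *AMA1*, which encodes a meiotic activator of the anaphase-promoting complex, lay in the top 10% of genes, at 1171 per kb. The 10 haploid and cell cycle genes with a row lay between 14.4 per kb for *SWI5* and 75.9 per kb for *ASE1*, and *MFA1*, *MFA2* and *STE18* have no row. Early meiotic genes were thus high, and genes of haploid or dividing cells low.

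The respiratory genes were abundant as a group. Their median level was 636.3 per kb, which is 3.86 times that of the median gene, and 36 of the 39 genes lay above the median of all genes. The top 10% of all genes held 18 of them. The median gene of the group stood at percentile 88.4 of all genes. Together they accounted for 1.18% of the summed mean normalized counts. The highest level was that of *QCR6* (3616 per kb), followed by *ATP2* (2881 per kb), *SDH4* (2442 per kb) and *ATP1* (2258 per kb). The first place depended on the length used. With 200 bases added to each coding length, *ATP2* had 2549 per kb and *QCR6* 2493 per kb, and by mean normalized count *ATP2* was the highest of the set. The 3 genes under the median of all genes were *CYC1* (121.0 per kb), *QCR9* (103.0 per kb) and *COX8* (64.0 per kb). The highest and the lowest level thus differed by 56.5 times among genes whose proteins act in 1 pathway. The count of genes above the median also depended on the length used. With 200 bases added to each coding length it was 33 of the 39, and *COX7*, *QCR10* and *ATP17* fell under the median too.

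**Figure D1:**
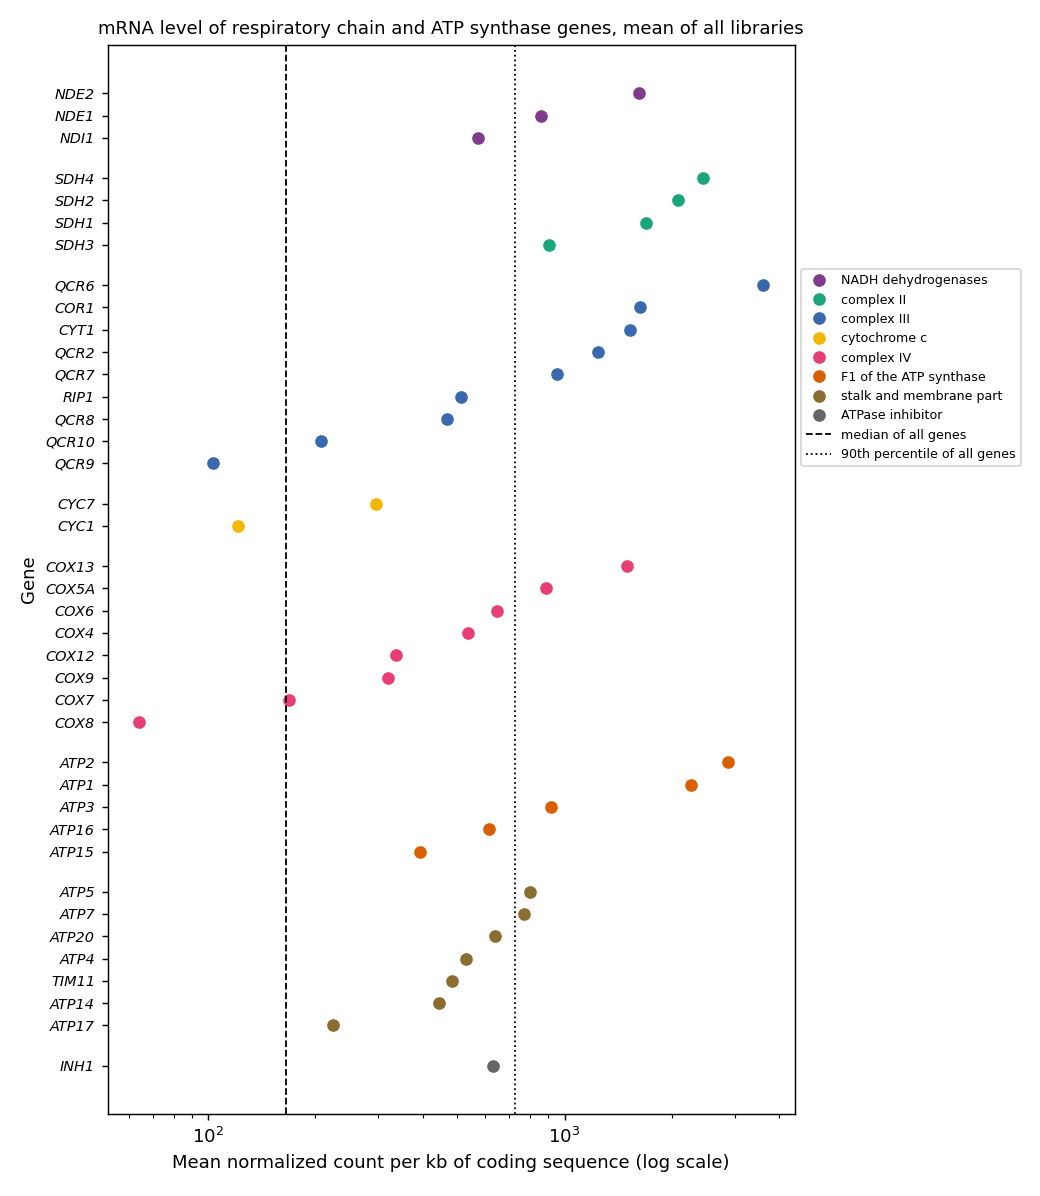
Authors' mean normalized count over all 6 libraries per kilobase of coding sequence, on a log axis, for 39 genes grouped by complex; each point is 1 gene and has no error bar because no value per library was used. All 4 genes of complex II lie to the right of the dotted line at the 90th percentile of all genes (726.2 per kb), whereas *CYC1*, *QCR9* and *COX8* lie to the left of the dashed line at the median (165.0 per kb).

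Electrons enter from NADH through 3 dehydrogenases. *NDI1* (YML120C) encodes the enzyme that faces the matrix, and *NDE1* (YMR145C) and *NDE2* (YDL085W) encode the enzymes that face the intermembrane space and oxidize cytosolic NADH. *NDE2* was the most abundant, with a mean normalized count of 2654 and a level of 1620 per kb. *NDE1* had a mean of 1446 and a level of 859.2 per kb, and *NDI1* a mean of 880.0 and a level of 570.7 per kb. The level of *NDE2* was 1.89 times that of *NDE1* and 2.84 times that of *NDI1*, so that both genes for the external enzymes lay above the gene for the internal one. The coding sequences of *NDE1* and *NDE2* are 62.1% identical in the S288C reference, and their longest common run is 11 bases, which is much shorter than the reads of 75 bases.

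Succinate dehydrogenase, or complex II, also belongs to the citric acid cycle, and it was the complex with the highest median, 1884 per kb, which is 11.4 times the median gene. *SDH4* (YDR178W), which encodes a membrane anchor subunit, had a mean normalized count of 1333 and a level of 2442 per kb. *SDH2* (YLL041C), the gene for the iron-sulfur subunit, had a level of 2080 per kb, and *SDH1* (YKL148C), the gene for the flavoprotein subunit, had 1688 per kb. *SDH3* (YKL141W) encodes the partner anchor and is shared with a protein translocase of the inner membrane, and it had the lowest level of the complex, 906.1 per kb. All 4 genes lay in the top 10% of genes, and the highest and the lowest differed by 2.69 times.

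Each gene of complex II except *SDH2* has a paralog outside the set. *SDH9* (YJL045W), the paralog of *SDH1*, had a level of 570.4 per kb and stood at percentile 86.7 of all genes. *SDH1* was 2.96 times as abundant as *SDH9*. The anchor paralogs were scarce by comparison. *SDH3* was 17.3 times as abundant as *SHH3* (52.4 per kb), and *SDH4* was 39.7 times as abundant as *SHH4* (61.6 per kb). *SDH1* and *SDH9* are 75.6% identical in their coding sequences, with a longest common run of 23 bases.

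Complex III passes electrons from ubiquinol to cytochrome c, and its 9 nuclear genes covered the widest range. *QCR6* (YFR033C), the gene for a small acidic subunit near the cytochrome c1 head, had a mean normalized count of 1605 and a level of 3616 per kb. The core proteins *COR1* (YBL045C) and *QCR2* (YPR191W) had levels of 1634 and 1244 per kb. *CYT1* (YOR065W), which encodes cytochrome c1, had 1523 per kb, and *RIP1* (YEL024W), which encodes the Rieske iron-sulfur protein, had 512.7 per kb. Both are catalytic subunits of the same complex, and *CYT1* was 2.97 times as abundant.

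The remaining genes of complex III encode small subunits. *QCR7* had 950.1 per kb and *QCR8* had 468.9 per kb, whereas *QCR10* had 207.5 per kb and *QCR9* only 103.0 per kb. *QCR9* and *QCR10* are also the 2 genes of the set with an intron in the coding sequence. *QCR6* and *QCR9* differed by 35.1 times. The mean normalized count of *QCR9* was 20.7, which stood at percentile 2.81 of all genes by count.

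Cytochrome c carries electrons from complex III to complex IV and is encoded by a gene pair. *CYC1* (YJR048W) encodes iso-1-cytochrome c, the main form in aerobic vegetative cells, and *CYC7* (YEL039C) encodes iso-2-cytochrome c, the minor form there. In these libraries *CYC7* had the higher value, with a mean normalized count of 101.0 for *CYC7* and 39.9 for *CYC1*. Their levels were 295.4 per kb for *CYC7* and 121.0 per kb for *CYC1*, a ratio of 2.44. Both were low for the pathway. The gene for their electron donor, *CYT1*, was 5.16 times as abundant as *CYC7* and 12.6 times as abundant as *CYC1*.

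Because the order of the isoforms rests on telling their reads apart, the 75-base stretches in which their coding sequences are most alike are shown. They come from the S288C reference R64, lie on chromosomes X and V, and start at base 208 of the *CYC1* coding sequence and at base 220 of that of *CYC7*. Capitals mark the bases that differ.
CYC1: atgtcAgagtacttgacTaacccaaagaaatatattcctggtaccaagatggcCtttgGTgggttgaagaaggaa
CYC7: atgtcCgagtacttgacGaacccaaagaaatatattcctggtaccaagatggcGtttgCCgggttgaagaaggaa
Even here a read of 75 bases meets 5 differences, and over the whole coding sequence 77.0% of the aligned bases are identical. The longest common run is 35 bases. *CYC1* and *CYC7* are the 2 genes of the set that share a run of 31 bases with any other coding sequence. Salmon assigns shared reads by estimate, so their split carries an uncertainty from shared sequence that was not found for the other 37 genes.

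Complex IV, cytochrome c oxidase, reduces oxygen. Its 8 nuclear genes in the set had a median level of 436.8 per kb, lower than that of complexes II and III. *COX26*, outside the set, had 551.7 per kb. *COX13* (YGL191W), which encodes a peripheral subunit, was the highest with a mean normalized count of 584.4 and a level of 1499 per kb. *COX5A* (YNL052W) encodes the aerobic form of a subunit whose hypoxic form is encoded by *COX5B*. *COX5A* had a level of 884.9 per kb and *COX5B* one of 42.4 per kb, a ratio of 20.9. The transcripts of this pair therefore favoured the aerobic form, whereas those of the cytochrome c pair favoured *CYC7*.

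*COX6* (644.4 per kb) and *COX4* (537.5 per kb) encode further subunits of the oxidase and lay in the middle of the range. *COX12* had 336.2 per kb and *COX9* had 319.6 per kb. *COX7* had 168.9 per kb, almost the level of the median gene. *COX8* had the lowest level of all 39 genes, with a mean normalized count of only 15.2. *COX13* was 23.4 times as abundant as *COX8*. The 4 lowest genes of the oxidase have coding sequences of 180 to 252 bases and *COX13* one of 390 bases.

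**Figure D2:**
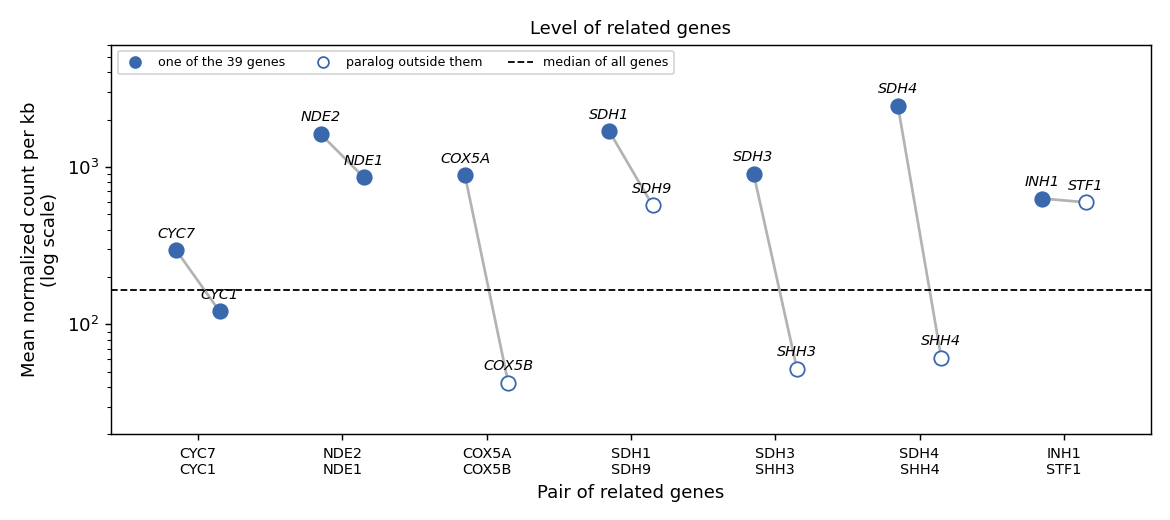
Authors' mean normalized count per kilobase of coding sequence, on a log axis, for pairs of related genes; filled points are genes of the set, open points are paralogs outside it and the dashed line is the median of all genes. *CYC7* lies above *CYC1* and *NDE2* above *NDE1*, and *COX5A*, *SDH3* and *SDH4* lie more than 10 times above their paralogs.

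The ATP synthase was represented by 12 genes of the set, all of them above the median of all genes per kilobase of coding sequence. With 200 bases added to each length, 11 of them were, with *ATP17* at percentile 48.5, and by count 8 of them were. Within its catalytic F1 part, alpha and beta are present in several copies and gamma, delta and epsilon in 1 copy each. The genes for alpha and beta lay above the other 3. They also have the longest coding sequences, 1638 and 1536 bases, against 936, 483 and 189 bases for gamma, delta and epsilon. Whether the order of levels goes with copy number or with length was not tested. *ATP2* (YJR121W), the gene for the beta subunit, had a mean normalized count of 4425 and a level of 2881 per kb, and *ATP1* (YBL099W), the gene for the alpha subunit, had a mean of 3699 and a level of 2258 per kb. *ATP3* (YBR039W), which encodes the gamma subunit, had 914.7 per kb. The level of *ATP2* was 3.15 times and that of *ATP1* 2.47 times that of *ATP3*. *ATP16* (YDL004W) for delta had 613.3 per kb and *ATP15* (YPL271W) for epsilon had 394.3 per kb, so that the single-copy subunits differed from each other by up to 2.32 times. This is about as large as the gap between *ATP1* and *ATP3*.

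The genes for the peripheral stalk and the membrane part were closer together, within 3.57 times. *ATP5* (YDR298C), the gene for the subunit that ties the stalk to the F1 head, had 797.7 per kb, and the stalk genes *ATP7* and *ATP4* had 769.6 and 530.0 per kb. *ATP14*, also of the stalk, had 444.2 per kb. *ATP20* and *TIM11* encode the subunits g and e, which hold ATP synthase dimers together, and they had 636.3 and 483.5 per kb. *ATP17*, which encodes the subunit f, was the lowest of the 12 genes at 223.6 per kb. Over these 12 genes, from *ATP2* to *ATP17*, the levels spanned 12.9 times. *ATP19*, outside the set, had 396.9 per kb.

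*INH1* (YDL181W) encodes the inhibitor that stops the ATP synthase from hydrolysing ATP when the proton gradient fails. Its level was 630.8 per kb, and that of its paralog *STF1* was 597.2 per kb. With a ratio of 1.06, these were the most similar of the related pairs. The level of *INH1* was close to the 624.8 per kb of the median gene of the ATP synthase.

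Within the set, the level followed the coding length. The Spearman correlation between them was 0.75 across the 39 genes and -0.08 across the other 5237 genes. The level also followed the GC content of the coding sequence, with a correlation of 0.58 across the 39 genes and 0.32 across the others. These are descriptions across genes that share the same libraries, and genes are not replicates. The 10 genes under 300 bases had a median of 327.9 per kb, against 126.1 per kb for all 116 genes of that length. The 15 genes from 300 to under 600 bases had 644.4 per kb, against 183.7 per kb for all genes of that length. Those from 600 to under 1200 bases had 914.7 per kb, against 187.7 per kb. The 7 genes of 1200 bases and more had 1634 per kb, against 155.1 per kb. The median of the respiratory genes was thus above that of all genes in each length class, by 2.60 times in the shortest and by 10.5 times in the longest. Of single genes, 8 of the 10 in the shortest class and 14 of the 15 in the next lay above the class median. The median of all genes varied little with length by comparison. How fully short transcripts enter a library also bears on the levels of short genes, and its part in these values was not tested.

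**Figure D3:**
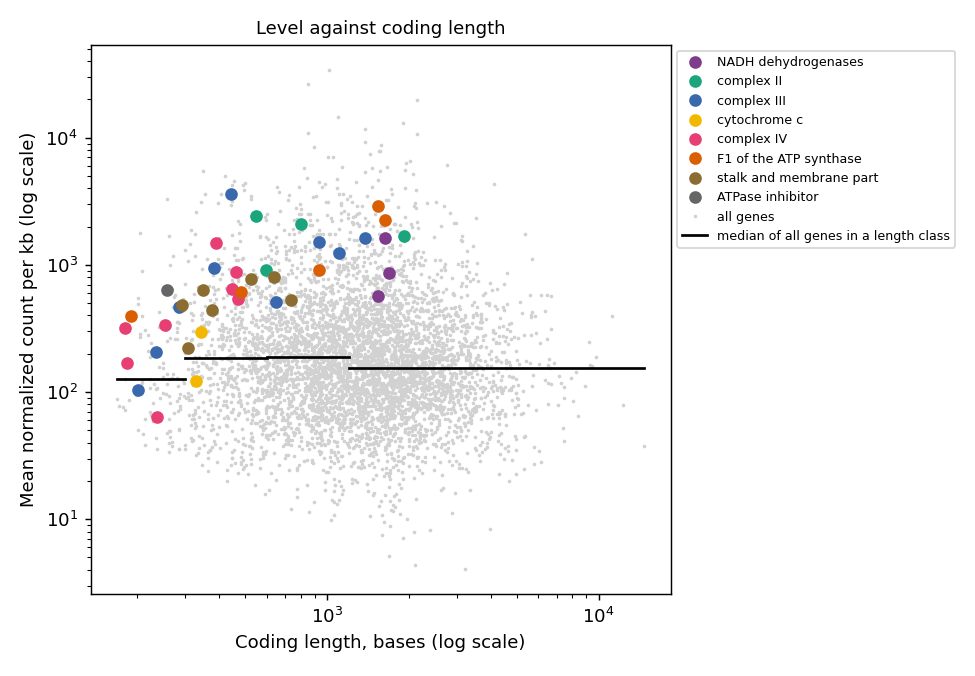
Authors' mean normalized count per kilobase of coding sequence against coding length, both on log axes; coloured points are the 39 genes by complex, grey points are all genes and black lines are the median of all genes in each of 4 length classes. The coloured points climb with length while the black lines stay between 126.1 and 187.7 per kb.

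Sequence features were compared as a further property that did not choose the genes. The heterotrimeric Hap2/3/5 complex with its activator Hap4 binds the letters CCAAT and is the known activator of respiratory genes in yeast. In the window from 250 bases before to 50 bases from the start codon, read on both strands in S288C R64, 32 of the 39 genes held CCAAT. Of all 5276 genes, 44.1% held it. Of the respiratory genes, 16 held 2 or more matches, against 11.0% of all genes. Among the other lists, 9 of the 10 haploid and cell cycle genes, 63.6% of the other subunits and paralogs and 53.3% of the citric acid cycle list held them. The shares were 41.1% for the assembly factors, 40% for the genes *HAP1* to *HAP5*, 30.8% for the middle meiotic markers and 29.4% for the early meiotic genes. The match nearest upstream of the start codon is shown for the most abundant gene with a match in each part of the pathway, in the direction of the gene, with the motif or its reverse complement ATTGG in capitals.
NDE1: aaaaaattaaCCAATaataatgatt
SDH4: aagcattgagCCAATcgctgctgtt
QCR6: taagggcagtATTGGttggcgctta
COX13: ttttttcccaCCAATgagaggcggt
ATP2: ctgttgttatCCAATttatactgaa
ATP5: atttcaaacgCCAATtgttaacttt
INH1: cacaattatgCCAATcaactgtcta
The last base of the motif lies 5 bases before the start codon in *NDE1*, 42 in *ATP2*, 102 in *QCR6*, 159 in *ATP5*, 208 in *COX13*, 228 in *INH1* and 229 in *SDH4*. No fixed distance is apparent in these windows.

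The 7 genes with no match in the window are *ATP1*, *COR1*, *CYT1*, *NDE2*, *COX4*, *CYC1* and *CYC7*. They include both cytochrome c genes and also some of the most abundant genes. Their median level was 1523 per kb, and that of the 32 genes with a match was 633.6 per kb. Over all genes, those with a match had a median of 161.0 per kb and those without had 169.3 per kb. The presence of these letters in the window thus did not go with a higher level. Of the 7 genes without a match, *ATP1*, *NDE2*, *COR1* and *CYT1* have 930 to 1638 coding bases, and *COX4*, *CYC7* and *CYC1* have 330 to 468. Coding length was not held fixed in these comparisons. Matches more than 250 bases before the start codon were not counted. The letters GGCGGC, the core of the Ume6 site of early meiotic genes, were found at 4 respiratory genes (*ATP20*, *COX5A*, *SDH1* and *SDH2*), a share of 10.3% against 4.80% of all genes. Their median level was 1287 per kb, and that of the other respiratory genes was 613.3 per kb. This median rests on 4 genes. *SDH1* and *SDH2*, both of complex II, had 1688 and 2080 per kb, and *ATP20* and *COX5A* had 636.3 and 884.9 per kb. Over all genes, those with GGCGGC had 327.9 per kb and those without had 160.9 per kb. Coding length was not held fixed here either.

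By their medians, other genes of the pathway were less abundant than the subunits, except those of the citric acid cycle. *HAP4*, the regulated subunit of the activator, had 926.3 per kb and lay in the top 10% of genes, while *HAP1*, *HAP2*, *HAP3* and *HAP5* lay between 192.5 and 275.3 per kb. The 56 assembly factors with a row, which build the complexes but are not part of them, had a median of 140.2 per kb, and 25 of them lay above the median of all genes. The highest was *SDH8*, an assembly factor of complex II, at 1368 per kb, and the lowest was *AEP3* at 28.9 per kb. *COX17* and *COA2* have no row. The 15 genes listed for the citric acid cycle had a median of 3146 per kb, and 14 of them lay in the top 10%. The highest of the list, *CIT2* (9224 per kb), encodes the peroxisomal citrate synthase of the glyoxylate cycle, and *MDH2*, also in the list, encodes the cytosolic malate dehydrogenase. Without these 2 genes the median was 3138 per kb, and the highest was *CIT1*, the gene for the mitochondrial citrate synthase, at 7458 per kb. The median of the subunit genes thus stood below that of the citric acid cycle genes and above that of the assembly factors. These are medians of the authors' means, and the differences between the lists were not tested.

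**Figure D4:**
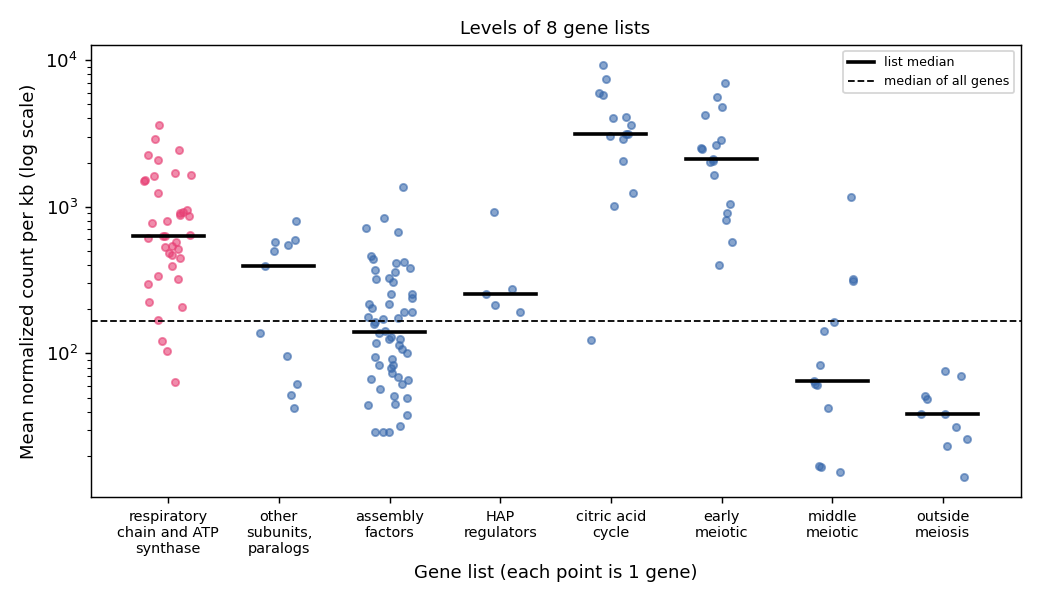
Authors' mean normalized count per kilobase of coding sequence, on a log axis, for the respiratory set and 7 other gene lists; each point is 1 gene, black bars are list medians and the dashed line is the median of all genes. The respiratory set (636.3 per kb) lies between the citric acid cycle list, with *CIT2* and *MDH2* included (3146 per kb), and the assembly factors (140.2 per kb).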

How the data were processed

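Poly(A) RNA of 6 meiotic cultures, 3 of each strain, was sequenced in paired reads of 75 bases from strand-specific libraries. Reads were aligned to SK1 by the authors (nf-core pipeline; the submitters' notes name Trim Galore, STAR, Salmon and DESeq2, with no version), counted per gene with salmon and batch-adjusted with ComBat-Seq. The deposited signal column used here is the mean, over all libraries, of counts the authors divided by DESeq2 size factors. It is not divided by length, and batch adjustment and averaging hide the spread between cultures. The 5 other value columns hold the authors' own comparison of the strains (log2 fold change, its standard error, test statistic, p-value and adjusted p-value) and were not used. The planned test between the strains needs values per library and was not run. Whether counting used strand is not given in the sources used here.

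Genes were matched by systematic name to the RefSeq annotation of S288C R64, which covered 5276 of the 5297 rows. The SK1 identifiers of all 39 genes name the same chromosome as their systematic names, and none overlaps another annotated coding sequence. As R64 is not the authors' build, no coordinates are given. Percentiles are shares of the 5276 genes with a lower level. Sequence windows, shared runs of 31 bases and global alignments were computed on R64. The genes and lists were chosen with earlier results of these data known. The text names all 39 genes, their paralogs, and the highest and lowest gene of each other list, of which 1 is not reported here. *HOP1*, *CIT1*, *MDH2*, *HAP1*, *HAP2*, *HAP3*, *ATP19*, *COX26*, the length classes and the motifs were chosen after the values were seen. The percentile function was tested on simulated data. Software was matplotlib 3.10.9, scipy 1.17.1, pandas 2.3.3 and numpy 2.4.6 under Python 3.11.15.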

Additional observations from a re-analysis of the deposited data

How the results depend on the processing

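No paired analysis was possible because the values used are means over all libraries, with none per culture. For the same reason leaving out a replicate and the alternatives planned for counts were not run. Dividing by length decided most. With no division by length, 25 of the 39 genes lay above the median gene, 11 lay in the top 10%, against 18 with the division, the median percentile was 67.6 and the spread within the ATP synthase was 64.7 times, against 88.4 and 12.9 times. With 200 bases added to each coding length, 33 genes lay above the median gene and 17 in the top 10%. The median percentile was then 85.7 and the spread 18.8 times, and the correlation of level and length was 0.82. The median percentile was 88.5 without *CYC7*, *NDE2* and *INH1*, and 88.6 within length classes, an alternative chosen after seeing the data. Requiring a mean of 10 or more normalized counts gave 36 genes above the median gene and 18 in the top 10%, the values found with no such filter. Short coding sequences are where these levels are least certain, since the added ends weigh most there.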
